A study of Mus musculus with 6 samples.

Results

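The extracellular matrix genes examined here encode collagens, laminins, nidogens and matrix glycoproteins, and they were followed in 2 subsets of macrophages sorted from mouse MASH liver. Members were the rows of the TPM table whose symbol is that of a collagen chain, a laminin chain, a fibulin, a fibrillin, a thrombospondin, an Efemp or an Emilin gene, or 1 of a short list of further matrix proteins such as Dcn, Bgn, Sparc, Ecm1 and Vtn. This gave 39 of 16503 genes. Of these, 38 encode matrix proteins, and the remaining row, Col4a3bp, matched by its name alone: it encodes a ceramide transfer protein of the cytosol. Of 84 matrix gene names sought, 46 had no row and were not analysed here, among them Fbn1, Tnc, Postn, Hspg2 and Col6a3; the lowest mean of any gene in the table was 1.00 TPM (a share of a library's transcripts that corrects for gene length).

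Both groups were Tim4- monocyte-derived liver macrophages (Ly6Clo F4/80+) of wild type mice given CDA-HFD, a choline-deficient high-fat diet that causes steatohepatitis with fibrosis, and both therefore carried the same genotype and diet. They were separated by surface CD11c and Mincle into CD11chiMinclehi cells (n = 3 libraries) and CD11cloMinclelo cells (n = 3 libraries). The diet was given for 7 weeks to mice that the study's methods describe as male C57BL/6J animals 6 to 12 weeks old at the start of feeding. The study asked whether these sorted cells correspond to lipid-associated macrophages and to monocyte-derived cells with Kupffer cell features. The titles call the libraries of each group biological replicates. The number of mice behind each library is not given in the sources used here, so p-values measure the spread between libraries. The 12 macrophage markers sought, among them Adgre1, Csf1r and Lyz2, were present in all 6 libraries, with summed levels of 6026 to 6776 TPM. Timd4, the gene of the gated Tim4, was listed at 0 in 2 libraries and was at 3.77 TPM at most. Libraries held 6.98 to 8.11 M estimated reads (M for mega), and the number of genes listed at 0 was 1092 and 1089 in the libraries numbered 1 against 688 to 861 in the other four.

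Collagens are built from chains that wind into triple helices. Fibrillar collagens give tissue its tensile strength, fibril-associated collagens coat the fibrils, and type IV collagen forms the sheet of basement membranes together with laminins and nidogens. Small leucine-rich proteoglycans such as decorin bind fibrils and growth factors, while matricellular proteins act on cells rather than bearing load. In fibrotic liver, stellate cells and portal fibroblasts are the main makers of fibrillar collagen, and macrophages are better known for remodelling matrix than for depositing it.

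With limma on log2(TPM + 1), 2 of the 39 genes passed at an adjusted p under 0.05, both lower in CD11chiMinclehi macrophages: Col14a1, a fibril-associated collagen, and Dcn, the proteoglycan decorin. Of all 16503 genes, 0.454% were called lower and 0.77% higher, and no member was called higher. At an unadjusted p under 0.05 there were 7 members, with 12.9% of all genes reaching that level. When the replicate number entered the model as a block, Col3a1 was also called lower and Ecm1 was called higher, with 1.75% and 1.67% of all genes called in those directions. The median log2 difference, CD11chiMinclehi minus CD11cloMinclelo, was -0.15 over the members and -0.01 over all genes tested, and 25 members lay below 0 (51.9% of all genes did). In bulk samples of this kind, fewer cells of a type and less RNA per cell cannot be told apart.

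**Figure D1:**
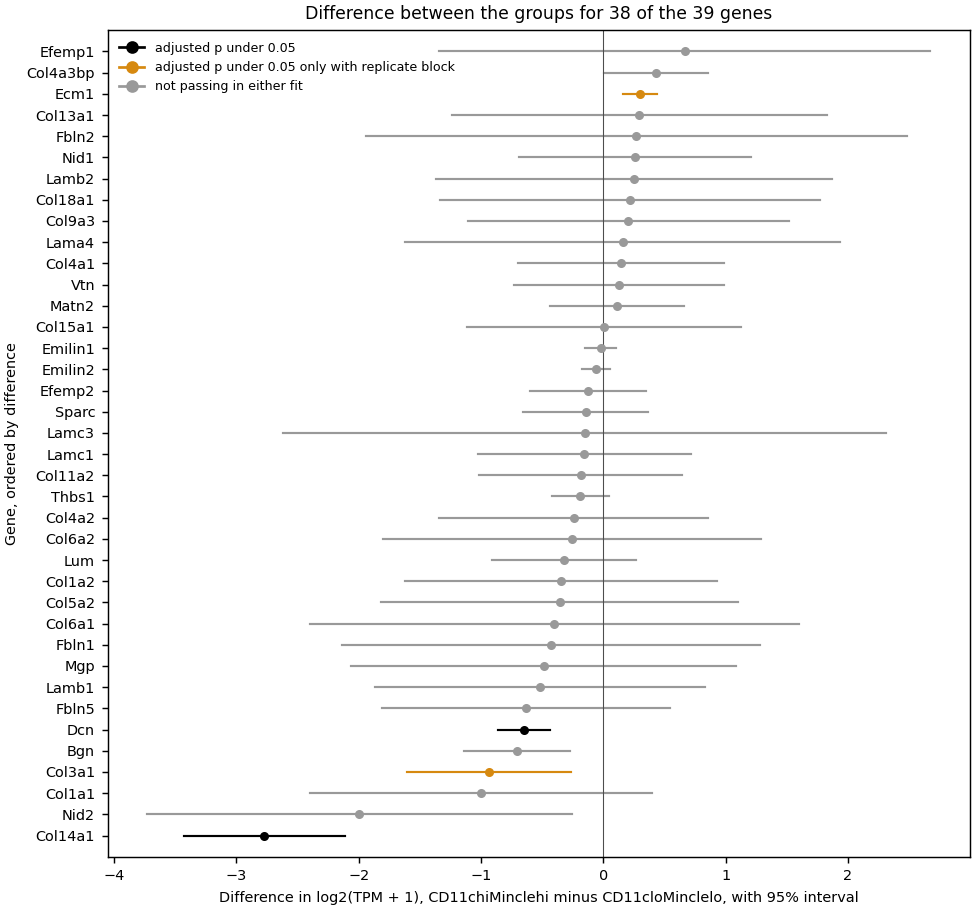
Difference in log2(TPM + 1) between the groups for 38 of the 39 genes (x axis, CD11chiMinclehi minus CD11cloMinclelo), ordered by size, with limma 95% intervals (n = 3 libraries per group). The intervals of Col14a1 and Dcn (black, adjusted p under 0.05) lie below 0, those of Ecm1 and Col3a1 (orange) passed only with the replicate block, and the widest belong to genes of a few TPM.

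Promoter windows from RefSeq (GRCm38.p6), 250 bases before to 50 after an annotated start, were found for 24 of the 39 genes. Bgn, Col3a1 and Ecm1 are printed because they were the members with a window whose libraries did not overlap between the groups, a choice made after their values were seen. Each is given 5′ to 3′ on its own strand, and capitals mark matches on either strand. The letters searched were TATAAA for the TATA box, CCAAT for the box of that name, GGGCGG for the GC box, TGANTCA for AP-1 sites and GAGGAA for the core of PU.1 sites.
Bgn, chrX:73483351-73483650, plus strand: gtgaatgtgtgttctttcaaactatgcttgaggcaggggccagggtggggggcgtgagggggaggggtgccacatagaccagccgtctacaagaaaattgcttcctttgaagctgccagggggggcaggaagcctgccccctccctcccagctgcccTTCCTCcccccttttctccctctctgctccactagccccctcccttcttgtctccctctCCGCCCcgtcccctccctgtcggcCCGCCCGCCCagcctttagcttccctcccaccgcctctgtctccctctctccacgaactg
Col3a1, chr1:45311288-45311587, plus strand: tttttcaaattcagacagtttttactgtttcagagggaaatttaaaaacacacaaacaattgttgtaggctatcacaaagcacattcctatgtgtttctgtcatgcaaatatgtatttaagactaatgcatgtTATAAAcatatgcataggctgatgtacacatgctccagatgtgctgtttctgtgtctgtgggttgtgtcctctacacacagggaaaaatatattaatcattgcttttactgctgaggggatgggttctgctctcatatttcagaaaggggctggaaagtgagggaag
Ecm1, chr3:95739520-95739819, minus strand: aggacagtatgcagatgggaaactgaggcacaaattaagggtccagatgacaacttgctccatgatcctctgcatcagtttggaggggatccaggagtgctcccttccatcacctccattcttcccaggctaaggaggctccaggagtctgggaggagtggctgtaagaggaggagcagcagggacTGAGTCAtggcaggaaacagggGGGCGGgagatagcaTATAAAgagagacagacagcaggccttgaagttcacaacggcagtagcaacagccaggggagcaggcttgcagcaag
The Ecm1 window held TATAAA 27 bases before the start, a GC box and an AP-1 match, the Col3a1 window held TATAAA 117 bases before its annotated start, and the Bgn window held 3 GC box matches, 2 of them overlapping, and 1 PU.1 core. Over the 31 member windows, TATAAA was found in 16.1% (5 windows), in 13.6% of all 32851 windows and in 8.06% of windows of genes in the table. The GC box was found in 61.3% of member windows, in 35.7% of all windows and in 58.8% of windows of genes in the table. In the same order (members, all windows, genes in the table), AP-1 matches were found in 9.68%, 7.81% and 5.7%, PU.1 cores in 25.8%, 28.3% and 27.1%, and CCAAT in 25.8%, 37.4% and 37.8%. GCGTGGGCG, an EGR motif, was in 0 of 31 member windows, in 0.612% of all windows and in 1.18% of those of genes in the table. Such letters are a description of the windows and show no binding.

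Expression levels spanned a wide range. Of the members, 5 were at 100 TPM or more on average over the 6 libraries, 13 between 10 and 100 TPM and 21 below 10 TPM (53.8%, against 36.9% of all genes). Their median level was 9.42 TPM, and that of all genes 22.7 TPM. The most abundant was Emilin2 at a mean of 304 TPM, and next came Thbs1 (269 TPM), Ecm1 (250.1 TPM), Emilin1 (168 TPM) and Vtn (118 TPM). Collagens stood far lower, with Col14a1 (34.9 TPM) and Col3a1 (28.6 TPM) at the top of them, and laminin chains were all below 5 TPM. Summed over all members the level was 1354, 1587 and 1495 TPM in CD11chiMinclehi libraries and 1483, 1705 and 1639 TPM in CD11cloMinclelo libraries. The groups overlapped, and the sum was lower in CD11chiMinclehi cells in 3 of 3 same-numbered pairs.

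**Figure D2:**
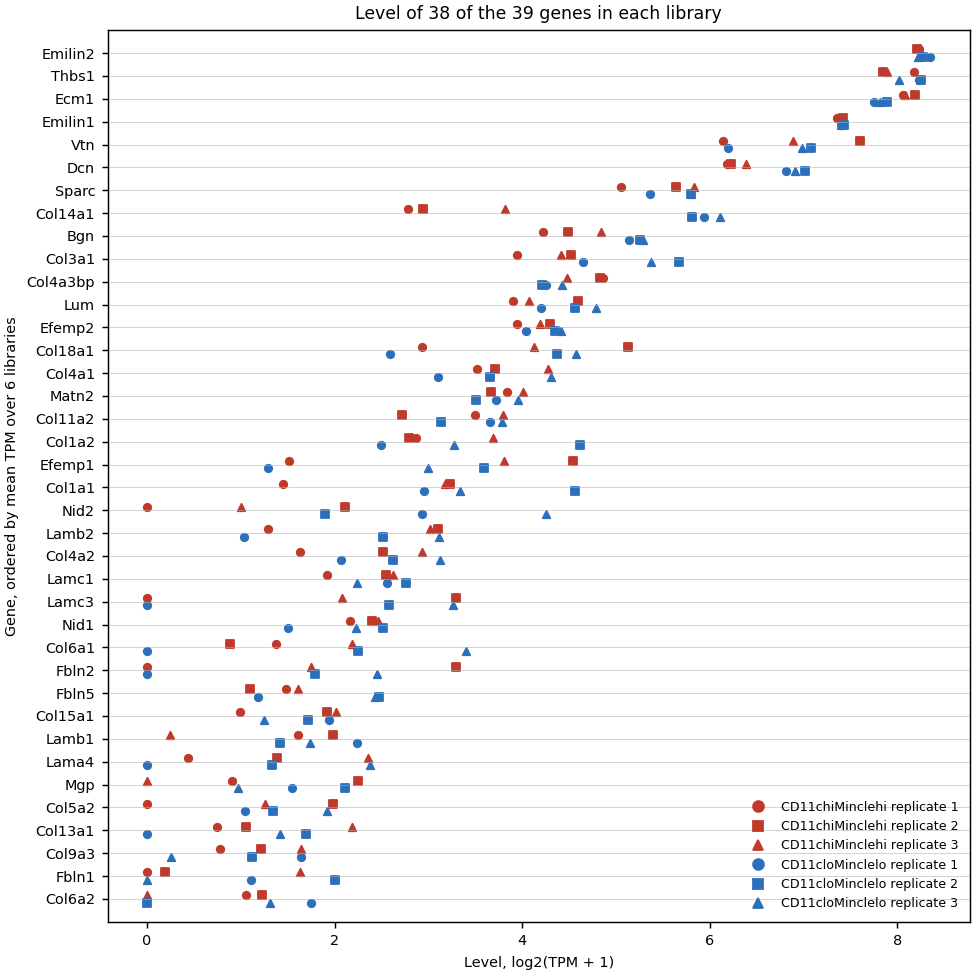
Level of 38 of the 39 genes in each library as log2(TPM + 1) (x axis), with genes ordered by mean TPM (y axis), red for CD11chiMinclehi, blue for CD11cloMinclelo, and circles, squares and triangles for replicates 1, 2 and 3. Emilin2, Thbs1, Ecm1, Emilin1 and Vtn are at the top, the groups of Col14a1 are far apart, and many genes of a few TPM are lowest in the circles.

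Among the fibril-associated collagens, Col14a1 was the member that differed most. It encodes collagen XIV, which binds the surface of collagen I fibrils and, in mouse tendon, limits their diameter. The gene (ENSMUSG00000022371) lies at chr15:55307750-55520803 on the plus strand of GRCm38. Its level was 5.88, 6.70 and 13.1 TPM in CD11chiMinclehi libraries 1, 2 and 3, and 60.5, 55.0 and 68.1 TPM in CD11cloMinclelo libraries 1, 2 and 3. The groups were far apart: the lowest CD11cloMinclelo library was 4.19-fold above the highest CD11chiMinclehi library. The means were 8.57 ± 3.97 and 61.2 ± 6.59 TPM (SD, n = 3), a 7.14-fold difference, and the log2 difference was -2.77 ± 0.28 (SE; adjusted p = 0.0110, and 0.00292 with the replicate block). These values rest on about 75.5 to 170 estimated reads per CD11chiMinclehi library and 715 to 803 per CD11cloMinclelo library. The call was lost when any 1 of the libraries other than CD11chiMinclehi replicate 3 was left out (adjusted p 0.0509 to 0.0672) and without the mean-variance trend (0.0803), with log2 differences of -2.57 to -2.84 in those fits. Col9a3, a chain of the fibril-associated collagen IX, averaged 1.28 TPM and its groups overlapped.

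The 3 small leucine-rich proteoglycans all had a negative log2 difference, and Dcn fell. Decorin binds collagen fibrils and sequesters TGF-β. Its gene (ENSMUSG00000019929, chr10:97479609-97518143, plus strand) was at 71.7, 73.8 and 82.7 TPM in CD11chiMinclehi libraries, and at 112, 128 and 119 TPM in CD11cloMinclelo libraries. All 3 CD11cloMinclelo libraries were above every CD11chiMinclehi library, by at least 1.35-fold. The log2 difference was -0.65 ± 0.09 (adjusted p = 0.0253), a 1.57-fold difference in mean level. This call, like that of Col14a1, was lost without any 1 of the libraries other than CD11chiMinclehi replicate 3 (adjusted p 0.0655 to 0.119) and without the trend (0.161).

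Bgn encodes biglycan, a close relative of decorin that can also act as a danger signal on Toll-like receptors when it is released from matrix. It was at 17.7, 21.5 and 27.7 TPM in CD11chiMinclehi libraries and at 34.1, 37.3 and 37.9 TPM in CD11cloMinclelo libraries. The groups did not overlap, but the gene did not pass (log2 difference -0.71 ± 0.19, adjusted p = 0.148, and 0.0787 with the replicate block). Lum encodes lumican, which spaces collagen fibrils in the cornea, and lies 46984 bases from Dcn on chromosome 10 with no protein-coding gene between them. Its levels were 14.0, 23.1 and 15.9 TPM against 17.4, 22.6 and 26.6 TPM, and these overlapped (log2 difference -0.32 ± 0.25, adjusted p = 0.690). The ratio of Dcn to Lum ran from 3.20 to 6.44 over the libraries and also overlapped between the groups.

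**Figure D3:**
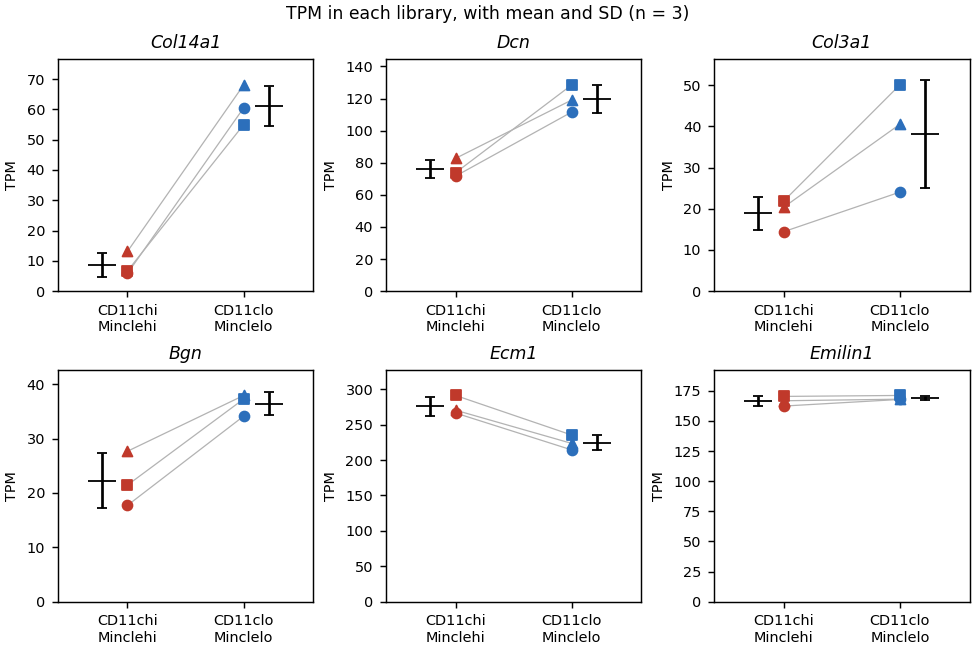
TPM of 6 genes in each library (y axes from 0), with circles, squares and triangles for replicates 1, 2 and 3, grey lines between libraries of the same number, and black bars for mean and SD (n = 3). Col14a1, Dcn, Col3a1 and Bgn are lower in all 3 CD11chiMinclehi libraries, Ecm1 is higher in all 3, and Emilin1 is at nearly one level of 162 to 171 TPM.

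Fibrillar collagen genes were at low levels, and each of the 5 measured had a log2 difference below 0. Col3a1, the chain of collagen III that accompanies collagen I in distensible tissue and in early scar, was at 14.4, 21.9 and 20.4 TPM in CD11chiMinclehi libraries. In CD11cloMinclelo libraries it was at 24.1, 50.1 and 40.5 TPM. The groups did not overlap, although the CD11cloMinclelo library numbered 1 came within 1.10-fold of the highest CD11chiMinclehi library. The log2 difference was -0.94 ± 0.29 with an adjusted p of 0.217, and it passed with the replicate block (0.0358).

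Col1a1 and Col1a2 encode the 2 chains of collagen I, the main collagen of scar. Col1a2 was at 6.29, 5.93 and 11.9 TPM against 4.63, 23.6 and 8.64 TPM, with the highest and the lowest value both among CD11cloMinclelo libraries. Col1a1 was at 1.74, 8.37 and 8.01 TPM against 6.76, 22.6 and 9.09 TPM. Neither passed (adjusted p 0.561 for Col1a1 and 0.871 for Col1a2), and their 95% intervals, -2.40 to 0.40 and -1.62 to 0.93 on the log2 scale, were wide. The ratio of Col1a1 to Col1a2 ranged from 0.276 to 1.46 between libraries. Without CD11cloMinclelo replicate 2 the log2 difference of Col1a2 turned to 0.24. Col11a2, a minor fibrillar chain known from cartilage, was at 10.3, 5.58 and 12.9 TPM against 11.6, 7.80 and 12.8 TPM. It overlapped fully. The ratio of Col14a1 to Col3a1 was 0.306 to 0.644 in CD11chiMinclehi libraries and 1.10 to 2.52 in CD11cloMinclelo libraries, so Col14a1 stood below Col3a1 in every library of the first group and above it in every library of the second.

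Ecm1 was the member called in the opposite direction, and only with the replicate block. It encodes extracellular matrix protein 1, a secreted glycoprotein of basement membranes that, in mouse liver, keeps latent TGF-β inactive. The gene (ENSMUSG00000028108) lies at chr3:95734147-95739569 on the minus strand. It was at 266, 291 and 270.3 TPM in CD11chiMinclehi libraries and at 214, 235 and 223 TPM in CD11cloMinclelo libraries. Every CD11chiMinclehi library was above every CD11cloMinclelo library, and the means differed 1.23-fold. The log2 difference was 0.30 ± 0.06 (adjusted p = 0.0639, and 0.0229 with the block).

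The other matrix glycoproteins overlapped between the groups. Vtn encodes vitronectin, an adhesive plasma protein made mainly by hepatocytes. It was at 69.4, 193 and 117 TPM against 72.0, 134 and 126 TPM, and the libraries numbered 1 were the lowest of both groups. Its log2 difference of 0.12 ± 0.37 (adjusted p = 0.945) turned negative without CD11chiMinclehi replicate 2 or without CD11cloMinclelo replicate 1. The 23 hepatocyte markers summed to 3157, 5743 and 3630 TPM in CD11chiMinclehi libraries and to 3521, 4586 and 4693 TPM in CD11cloMinclelo libraries, also lowest in the libraries numbered 1. Their part in the level of Vtn was not tested. Matn2, a filament-forming matrilin, was at 10.3 to 15.1 TPM over all libraries. Mgp, an inhibitor of calcification, was at 1.80 TPM on average, or about 3.83 estimated reads per library, which is probably an overestimate.

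Among the elastic fibre members, Emilin2 and Emilin1 were the most abundant and differed little. They encode elastin-interfacing glycoproteins. Emilin2 was at 299, 295 and 299 TPM against 326, 308 and 297 TPM (log2 difference -0.06, 95% interval -0.17 to 0.05). Emilin1 was at 162, 170.3 and 167 TPM against 168, 171 and 168 TPM (log2 difference -0.02, 95% interval -0.15 to 0.11). These intervals were among the narrowest of all members, and both genes overlapped between the groups. Removal of duplicate reads can narrow differences of abundant genes, and its part here was not tested. Efemp2, or fibulin-4, needed for elastic fibre assembly, was at 14.4 to 20.3 TPM over all libraries. Efemp1, or fibulin-3, differed strongly between libraries of the same group: it ran from 1.87 to 22.4 TPM in CD11chiMinclehi libraries and from 1.45 to 11.1 TPM in CD11cloMinclelo libraries, lowest in the library numbered 1 of each.

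Thbs1 encodes thrombospondin-1, which can activate latent TGF-β and is stored in platelet granules. It was at 288, 230 and 236 TPM in CD11chiMinclehi libraries and at 298, 304 and 258 TPM in CD11cloMinclelo libraries. It was lower in CD11chiMinclehi cells in 3 of 3 same-numbered pairs, but the groups overlapped and it did not pass in either fit (log2 difference -0.19 ± 0.10, adjusted p = 0.490, and 0.255 with the block). The 5 platelet markers measured summed to 282, 186 and 265 TPM against 397, 274 and 387 TPM, and Itga2b and Gp1ba stayed at or below 3.05 TPM and were each listed at 0 in 1 library. Pf4, platelet factor 4, made up most of these sums and was called lower with the block alone (adjusted p 0.268 without and 0.00462 with it). The part of platelets in the level of Thbs1 was not tested. Sparc, or osteonectin, a collagen-binding matricellular protein, was at 32.3, 48.8 and 55.8 TPM against 40.1, 54.8 and 54.6 TPM. Its log2 difference of -0.15 ± 0.22 (adjusted p = 0.860) turned to 0.08 without CD11chiMinclehi replicate 1.

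Basement membrane genes were low throughout. Col4a1 and Col4a2, whose products assemble into the common form of collagen IV, lie head to head on chromosome 8 and their annotated starts are 21 bases apart, so that their RefSeq windows share 78 bases. The windows are printed because the pair shares this stretch of promoter, with capitals marking matches to the same motifs.
Col4a1, chr8:11312777-11313076, minus strand: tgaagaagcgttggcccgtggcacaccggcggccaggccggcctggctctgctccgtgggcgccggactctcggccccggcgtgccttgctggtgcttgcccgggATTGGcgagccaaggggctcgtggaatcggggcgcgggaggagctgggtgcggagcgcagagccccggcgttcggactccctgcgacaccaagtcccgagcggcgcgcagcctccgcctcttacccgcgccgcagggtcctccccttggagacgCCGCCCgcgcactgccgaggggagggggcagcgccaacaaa
Col4a2, chr8:11312555-11312854, plus strand: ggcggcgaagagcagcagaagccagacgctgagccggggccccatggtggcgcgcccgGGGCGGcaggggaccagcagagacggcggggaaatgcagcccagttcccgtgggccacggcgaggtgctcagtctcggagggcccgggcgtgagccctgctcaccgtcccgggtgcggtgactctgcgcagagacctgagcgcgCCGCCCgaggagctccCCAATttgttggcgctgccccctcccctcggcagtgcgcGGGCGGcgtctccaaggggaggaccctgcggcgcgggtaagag
Both windows held CCAAT and GC box matches, and neither held TATAAA. Col4a1 was at 10.4, 12.1 and 18.4 TPM against 7.58, 11.6 and 18.8 TPM, and Col4a2 at 2.10, 4.74 and 6.61 TPM against 3.20, 5.17 and 7.71 TPM. In every library Col4a1 was above Col4a2 by 2.25 to 4.95-fold, and for both genes the library numbered 1 was the lowest and the library numbered 3 the highest of its group. Without strand in the counting, reads from the overlapping ends of the pair could not be told apart, and the strand setting is not given in the sources used here.

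Of the laminins and nidogens, 8 members had a row, with means between 1.97 and 5.30 TPM. Nid2, which encodes nidogen-2, a linker of laminin and collagen IV, was the most abundant of them. It was listed at 0 in CD11chiMinclehi library 1 and was at 3.31 and 0.997 TPM in the other two, against 6.65, 2.73 and 18.1 TPM in CD11cloMinclelo libraries. These overlapped, and the log2 difference of -2.00 ± 0.75 did not pass (adjusted p = 0.307). The transmembrane and endostatin-forming collagens were led by Col18a1, the source of endostatin, at 6.63, 33.9 and 16.5 TPM against 5.04, 19.6 and 22.8 TPM. It overlapped, and its log2 difference of 0.22 ± 0.67 turned negative without CD11chiMinclehi replicate 2 or CD11cloMinclelo replicate 1. Of collagen VI, which forms beaded filaments, Col6a1 was the more abundant chain at 1.59, 0.844 and 3.56 TPM against 0, 3.75 and 9.53 TPM, again overlapping (log2 difference -0.40 ± 0.86).

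The other 19 members, Col1a1, Col4a2, Col9a3, Mgp and Efemp1 among them, had means of 1.04 to 9.45 TPM and log2 differences from -0.999 to 0.66. All 19 overlapped between the groups, and their lowest adjusted p was 0.561 (0.235 with the block). Depth was low for many of these: 17 members had fewer than 50 estimated reads on average per library, and 11 members were listed at 0 in at least 1 library. The median SE of the log2 difference was 0.48 over the members against 0.24 over all genes, so the differences of low members were measured with wide intervals. Col4a3bp, the ceramide transfer gene, was at 28.1, 27.5 and 21.3 TPM against 18.1, 17.6 and 20.5 TPM, did not overlap and did not pass (log2 difference 0.43 ± 0.18, adjusted p = 0.387). Over the members, 4 did not overlap on the lower side and 2 on the higher side, and this held for 9.22% and 9.25% of all genes.

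Many members were lowest in libraries of the same replicate number in both groups. For 22 of the 39 genes (56.4%), the library numbered 1 was the lowest in both groups, which was so for 15.6% of all genes. The corresponding numbers were 2 members for replicate 2 (13.5% of all genes) and 1 member for replicate 3 (10.4%). This pattern was noticed after the values were seen. It was not confined to low genes: it held for 11 of the 21 members under 10 TPM and for 18.1% of all genes at that level, and also for 11 members of 10 TPM or more, among them Vtn, Dcn, Sparc, Bgn, Col3a1, Lum and Col18a1. Lamc3 and Fbln2 were listed at 0 in both libraries numbered 1 and were at 2.37 to 8.84 TPM in the other four. Together the 21 members under 10 TPM summed to 23.5, 97.1 and 76.8 TPM in CD11chiMinclehi libraries and to 42.3, 94.8 and 102 TPM in CD11cloMinclelo libraries.

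**Figure D4:**
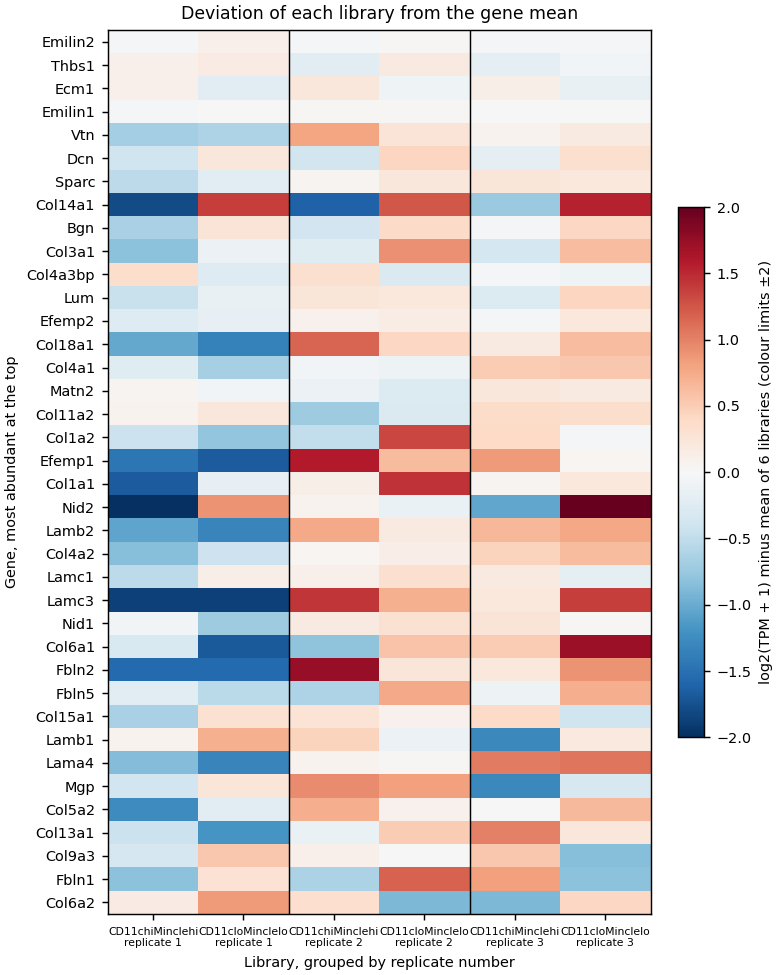
Deviation of each library from the gene's mean over 6 libraries in log2(TPM + 1) (colour, limits ±2), with genes from most to least abundant (y axis) and libraries grouped by replicate number (x axis), for 38 of the 39 genes. For most of them the libraries numbered 1 are the lowest of their group, while Col14a1 alternates between the groups within every number.

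Markers of other cell types were read in the same libraries, since each is a known source of some of these genes. The cholangiocyte and mesothelial markers, 9 of them measured, summed to 88.6, 343 and 280.4 TPM in CD11chiMinclehi libraries and to 139, 403 and 408 TPM in CD11cloMinclelo libraries, lowest in both groups in the library numbered 1 and lower in CD11chiMinclehi cells in 3 of 3 same-numbered pairs. Krt18 (36.3 to 159 TPM) and Krt8 (39.9 to 123 TPM) made up most of these sums. Msln, the mesothelial marker, was listed at 0 in 3 libraries and Cldn4 in 2. Epcam was at 2.37 to 39.5 TPM and Krt19 at 3.37 to 30.6 TPM. The 21 liver endothelial markers summed to 451, 608 and 602 TPM against 412, 606 and 689 TPM, again lowest in the libraries numbered 1. None of the 9 or the 21 passed without the block, and 0 and 3 of them reached an unadjusted p under 0.05 (12.9% of all genes did). Their median log2 differences were -0.51 and -0.01, with 8 of 9 and 12 of 21 below 0 (51.9% of all genes were). Fcgr2b, by far the most abundant gene of the endothelial list, was at 178 to 253 TPM over the libraries and made up a large share of these sums. It was higher in CD11chiMinclehi cells (242 ± 12.8 against 204 ± 22.1 TPM) and did not pass in either fit. Eng was next at 54.2 to 89.4 TPM. Cdh5, the VE-cadherin gene, which the Kupffer cell list also holds, was at 2.72, 5.49 and 9.33 TPM against 16.1, 19.8 and 41.5 TPM and was called lower with the block (adjusted p 0.112 without and 0.0126 with it). The part of these cells in the low values of the libraries numbered 1 was not tested.

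The 20 stellate cell and fibroblast markers outside the members summed to 172, 148 and 229 TPM in CD11chiMinclehi libraries and to 225, 197 and 261 TPM in CD11cloMinclelo libraries. These sums overlapped but were lower in CD11chiMinclehi cells in 3 of 3 same-numbered pairs. Of the markers, 0 of 20 passed, with or without the block, and 0 reached an unadjusted p under 0.05 (12.9% of all genes did). Their median log2 difference was -0.46, and 15 of 20 were below 0 (51.9% of all genes were). Of the defining markers, Pdgfrb was at 6.38 ± 1.88 against 3.69 ± 0.916 TPM, Lrat at 2.18 ± 1.70 against 3.58 ± 1.07 TPM and Des at 2.58 ± 1.51 against 4.08 ± 1.56 TPM (SD, n = 3). Acta2 was at 15.4 to 19.5 TPM against 5.54 to 15.7 TPM. Colec10 was listed at 0 in 1 library. The part of stellate cells in the lower Col14a1, Dcn and Col3a1 was not tested.

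Kupffer cell markers did move with the groups. Their 13 genes summed to 1839, 1651 and 2237 TPM in CD11chiMinclehi libraries and to 2980, 3012 and 4067 TPM in CD11cloMinclelo libraries, with no overlap. None passed without the block, where 8 of 13 reached an unadjusted p under 0.05 (12.9% of all genes did). With the block, 8 of 13 were called lower (1.75% of all genes were). Clec4f, a lectin gene of Kupffer cells, was at 44.2, 54.2 and 157 TPM against 293, 366 and 554 TPM. The paper also uses Clec4f as a marker of monocyte-derived Kupffer cells. It had already reported that the expression pattern of CD11cloMinclelo cells aligned with those cells. The part of such cells in the levels of Col14a1 and Dcn was not tested.

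**Figure D5:**
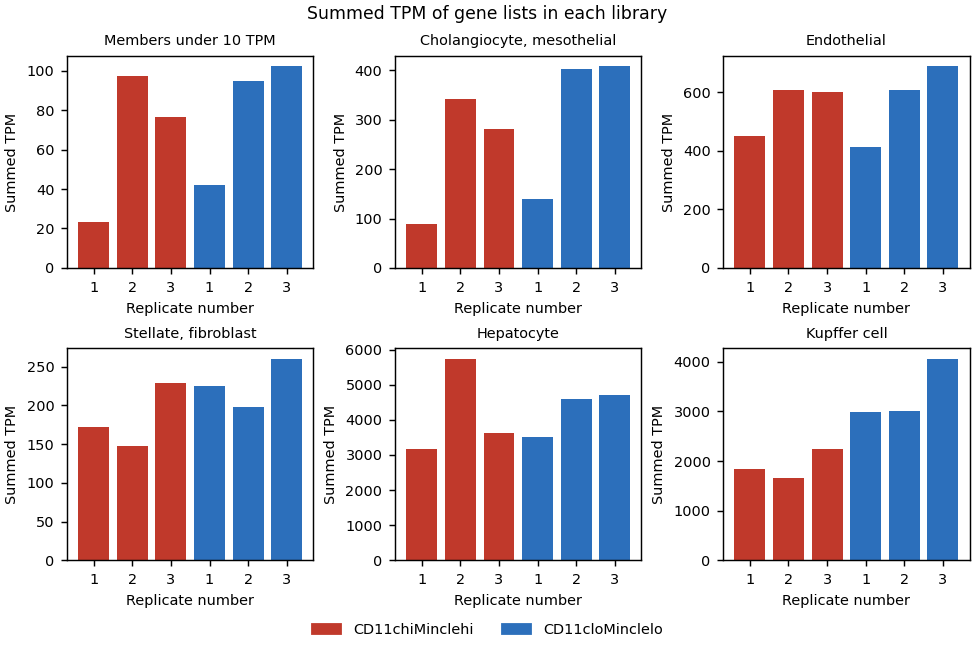
Summed TPM of 6 gene lists in each library (bars from 0, red for CD11chiMinclehi and blue for CD11cloMinclelo, x axis the replicate number). The members under 10 TPM and the cholangiocyte and endothelial lists are lowest in the libraries numbered 1 of both groups, the stellate cell sums overlap, and all 3 Kupffer cell sums of CD11chiMinclehi cells are below those of CD11cloMinclelo cells.

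Other matrix genes outside the members included 1 that rose. Of 28 measured, Fn1, which encodes fibronectin, the adhesive glycoprotein onto which collagen fibrils assemble, was at 318, 342 and 287 TPM in CD11chiMinclehi libraries and at 138, 177 and 124 TPM in CD11cloMinclelo libraries. The groups did not overlap, and the log2 difference was 1.12 ± 0.13 (adjusted p = 0.0165), the opposite direction to Col14a1 and Dcn. The call was lost without CD11chiMinclehi replicate 1 or 2, without CD11cloMinclelo replicate 1 and without the trend. Ltbp3, which binds latent TGF-β, was at 66.1 ± 5.81 against 27.5 ± 9.06 TPM and passed with the block (adjusted p = 0.0211). The median log2 difference of the 28 genes was -0.09, and 17 were below 0 (51.9% of all genes were). Eln (0.490 ± 0.527 against 3.44 ± 1.48 TPM) and Agrn (5.18 ± 1.96 against 11.9 ± 3.92 TPM) were among the lower ones. Neither passed in either fit. Fn1 is also 1 of the 10 monocyte markers, of which Fn1 and Gsr, the glutathione reductase gene, rose.

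Genes that make and modify collagen did not pass without the block. Of 26 measured, 0 were called and 6 reached an unadjusted p under 0.05 (12.9% of all genes did), and the median log2 difference was -0.04. They include the subunits of prolyl 4-hydroxylase, and P4hb (471 ± 17.4 against 459 ± 22.5 TPM) and P4ha1 (114 ± 8.73 against 125 ± 16.3 TPM) were each well above every collagen gene. Plod1, a lysyl hydroxylase, was at 148, 135 and 177 TPM against 178, 202 and 263 TPM and was called lower with the block alone (log2 difference -0.47 ± 0.15, adjusted p = 0.237, and 0.0259 with the block). Serpinh1, the collagen chaperone HSP47, was at 11.5 TPM against 18.5 TPM on average (adjusted p = 0.712). Pcolce2 had the largest log2 difference of the 26 genes, of which 16 were below 0 (51.9% of all genes were). It was at 0, 0.520 and 0.487 TPM against 2.79, 5.54 and 12.1 TPM. It did not pass (log2 difference -2.39 ± 0.57, adjusted p = 0.110, and 0.0554 with the block).

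Receptors for matrix were likewise not called without the block (0 of 20, median log2 difference -0.11). Of the 20, 4 reached an unadjusted p under 0.05 (12.9% of all genes did). With the block, Cd36, a scavenger receptor that binds thrombospondin-1, was called higher (470.3, 437 and 456 against 386, 323 and 349 TPM, log2 difference 0.37 ± 0.07, adjusted p 0.0503 without and 0.0110 with the block). Stab1, a scavenger receptor that clears Sparc, was called lower (200.2, 180.1 and 238 against 249, 236 and 321 TPM, log2 difference -0.38 ± 0.14, adjusted p 0.295 without and 0.0144 with the block). Plod1, Ltbp3, Cd36 and Stab1 are named although they did not pass without the block, a choice made after their values were seen. The same holds for P4hb, P4ha1, Serpinh1, Pcolce2, Eln, Agrn and the markers above.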

How the data were processed

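Poly(A) RNA of the sorted cells was made into directional libraries, and per the labels and methods the authors used Trimmomatic 0.39.0, HISAT2 2.2.1 on GRCm38, removal of PCR duplicates and featureCounts 2.0.1. TPM values were deposited, which the authors derived with mm10 gene lengths. The annotation release is not given in the sources used here. Duplicate removal without molecular identifiers can lower abundant genes and narrow their differences. The highest value of any gene in a library was between 1184 and 1382 TPM. The part of duplicate removal in this was not tested. Reads per gene were estimated from the step between low TPM values and exon lengths of GENCODE release M21, in which 16104 genes (97.6%) had a unique symbol. Low values lay within 0.05 of whole steps in 82.0% to 88.7% of cases (10% by chance), and a step can be 1 read or 1 pair of reads. Estimates are too high for genes whose M21 length exceeds the length the authors used. Those of Mgp (1.91, 7.65, 0, 3.82, 7.67 and 1.92) were all near multiples of 1.91. Counts of members with few estimated reads may therefore be too low.

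Log2(TPM + 1) was fitted with limma 3.58.1 in R 4.3.3 (empirical Bayes, mean-variance trend, two-sided) on all 16503 genes and 6 libraries, and Benjamini-Hochberg adjusted p under 0.05 was called. Fold changes on this scale understate those of low genes. Genes at 0 in every library of a fit were left out of that fit. The procedure was also run on simulated data with independent noise, where changes were planted only in genes above about 10 TPM. That run therefore does not cover members below this level or a pattern shared by replicate number. An exact test of 3 against 3 libraries cannot go below p = 0.1, so none was run for single genes.

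After subtraction of group means, same-numbered libraries correlated over genes at 0.36, 0.20 and 0.12 (numbers 1, 2 and 3), each matching its own number best. The numbers are shared in the titles, and the sample descriptions also carry matching numbers in both groups. The sources do not state, however, that same-numbered libraries came from the same mice. The paper used paired t-tests for other measures of these sorted cells. The main model leaves the pairing out, and the replicate block is given where it changed a call. Over all genes, 127 were called higher and 75 lower without the block, and 275 and 289 with it.

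Named genes were members that passed with or without the block, members with a mean of at least 10 TPM, the most abundant member of each role group, and passing genes of the other lists. Values of Col1a1, Col4a2, Col9a3, Mgp, Efemp1, Lamc3 and Fbln2 are given outside this rule. Members, lists and tests were chosen with earlier results of these data known. The alternatives were pseudocounts of 0.1 and 5, a filter at a mean of 5 TPM, upper-quartile scaling, no trend, the block and leaving out libraries. The values of 1 member are not reported here, although it is included in the counts and sums.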

Additional observations from a re-analysis of the deposited data

How the results depend on the processing

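The 2 members called lower, Col14a1 and Dcn, were both called under pseudocounts of 0.1 and 5, the filter at a mean of 5 TPM, upper-quartile scaling and the replicate block. No member was called lower without the trend (0 members) or without replicate 1 in both groups (0 members, an alternative chosen after seeing the data), and leaving out 1 library gave 0 to 2. With the replicate block, 1 member was called higher. Over all genes, 8 were called higher and 11 lower without the trend, 275 and 289 with the replicate block, 0 and 0 without replicate 1 in both groups, and 4 to 40 and 2 to 52 with 1 library left out. The replicate block called 1 collagen biosynthesis gene, 2 matrix receptor genes and 2 other matrix genes. The filter at 5 TPM called 1 matrix receptor gene and 2 other matrix genes, a pseudocount of 5 called 2 other matrix genes, no trend called 0, leaving out 1 library gave 0 to 1, and 0 were called without replicate 1 in both groups. The block changed no other call among the named members than those of Col3a1 and Ecm1. Among the markers it also changed the calls of Ass1, Bst2, Adgre1, Fcgr1, Plac8, Pf4 and the Kupffer cell genes counted above. Of the 20 members named by the rule, the log2 difference changed sign for 8 under at least 1 alternative, none of them called. The other 19 were not followed singly. Leaving out 1 library gave log2 differences of -0.24 to 0.49 for Vtn, -0.31 to 0.0782 for Sparc, -0.41 to 0.78 for Col18a1, -0.15 to 0.46 for Col4a1, -0.0016 to 0.23 for Matn2, -0.42 to 0.13 for Col11a2, -0.83 to 0.24 for Col1a2 and -1.34 to 0.36 for Col6a1. With a pseudocount of 0.1, that of Col6a1 was 0.22. The fits that leave out 1 library keep 5 libraries and fewer residual degrees of freedom. Depth limits low members most, since 5 members had fewer than 20 estimated reads per library on average.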
